A study of Rattus norvegicus with 6 samples.

Results

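The genes described here encode the protein subunits of the cytosolic ribosome. They were found by symbol: a probe set belonged to the group when the platform annotation gave it a single symbol of the form Rpl or Rps with a number, or Rplp0, Rplp1, Rplp2 or Rpsa. Mitochondrial ribosomal protein genes, S6 kinase genes, pseudogenes and LOC names were left out. This gave 48 of the 14217 distinct symbols on the array, or 55 of its 31099 probe sets, 37 for 33 genes of the large subunit and 18 for 15 genes of the small subunit. The rule used no measured value, but the group was chosen with earlier results of these data known. A further 36 probe sets carry a ribosomal protein symbol beside others and were described only as a set. Rps27a, Rplp1, Rplp2, Rps27, Rps4x, Rpl10, Rpl10l, Rpl22l1, Rpl36a, Rpl36al and Rpl39l had no probe set of their own by this rule and were not analysed here.

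Cells of rat cortex in primary culture received either an expression vector for Math2, the transcription factor of cortical neurons now called Neurod6, or a control vector (13.3 µg per dish in each case). Every dish of both groups also received 2.7 µg of a vector for LNGFR, a receptor cut short inside the cell that served as a surface tag, and tagged cells were collected with magnetic beads after 24 h. Both groups therefore carry the tag and passed the selection. The probe set of Neurod6 was not higher on the arrays labelled Math2: it read 386, 207 and 973 in control and 312, 167 and 1546 in Math2 arrays, a log2 difference of 0.021 with overlapping groups. Whether the vector's transcript holds the sequence it probes is not given in the labels, so Math2 names a group here by its label alone. RNA from 3 control and 3 Math2 samples was amplified in a 2-cycle protocol from 50 ng of total RNA and measured on Affymetrix rat arrays. The labels give neither the strain and age of the animals nor whether the samples of a group came from separate cultures, so p-values here reflect the spread among these arrays, which may be technical.

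A ribosome consists of a small subunit, which reads the messenger RNA, and a large subunit, which joins amino acids. Each of the ribosomal proteins is needed in about equal number, and their genes are transcribed at high level in most cells. Their mRNAs typically begin with a C followed by a run of pyrimidines (C or T in the DNA), the terminal oligopyrimidine tract, through which mTOR signalling controls their translation. In neurons, ribosomal protein mRNAs are also carried into axons and dendrites.

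The start of these genes was looked up in RefSeq promoter sequences of the GRCr8 build, which held 43 of the 48 genes, 41 matched by gene number and 2 by symbol. The entries run from 250 bases before to 50 bases after the annotated start. The following windows hold 15 bases before and 15 bases from the start, written 5′ to 3′ on the strand of the gene, and capitals mark the longest run of a C followed by at least 4 C or T. The first 6 genes are shown because each has such a tract near the start, and the last 2, Rpl26 and its paralogue Rpl26l1, because their windows hold none.
Rps23, chr2:23814502-23814531, plus strand: tgggtccttcctgCCTCTCTTCTCTCTTTC
Rpl37a, chr9:81748076-81748105, plus strand: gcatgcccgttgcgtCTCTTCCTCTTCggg
Rpl19, chr10:83519049-83519078, plus strand: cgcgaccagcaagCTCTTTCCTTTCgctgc
Rpl35a, chr11:81235007-81235036, minus strand: gcgggtcttgCCTTCCTCTTTCCgccatct
Rpl34, chr2:221962269-221962298, minus strand: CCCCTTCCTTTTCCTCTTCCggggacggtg
Rplp0, chr12:46718376-46718405, minus strand: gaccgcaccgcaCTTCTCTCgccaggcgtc
Rpl26, chr10:54109677-54109706, plus strand: ctcgtgtcaacttacagaaccggaagtcgc
Rpl26l1, chr10:17029014-17029043, minus strand: aaatgtcatttccgggcctgcgcacacacc

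On the strand of the gene, a tract of at least 5 such bases lay within these 30 bases in 32 of 43 genes (74.4%), against 34.8% of all 33469 promoters of the table. A tract of at least 8 bases lay there in 21 of 43 (48.8%), against 8.4% of all promoters, and the longest, 20 bases, belonged to Rpl34. Annotated starts can be off by some bases, so the tract need not begin at the first base. The E-box CANNTG, the core that basic helix-loop-helix factors such as Math2 bind, was found on either strand in the 300-base entries of 25 of 43 genes (58.1%), against 72.1% of all. Its subtypes CAGATG or CATCTG, which are the same site read from the other strand, were in 5 of 43 (11.6%, against 16.6%). The motif CCGGAAG or its complement CTTCCGG, recognised by ETS factors, was in 10 of 43 (23.3%, against 8.75%). These are matches of letters in these windows, not sites of binding.

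On the arrays, signal was the MAS5 intensity of a probe set, a linear value combined from its probes, and levels were handled as log2(signal + 7.42). A log2 difference is the Math2 mean minus the control mean on that scale. It was tested with limma across 18625 probe sets that passed a filter on mean signal, with an adjusted p of 0.05 as the threshold. Of the 55 probe sets, 52 passed the filter and stand for 46 genes. The 3 that did not were the only probe set of Rpl30 (38.5 ± 20.7 in control and 66.6 ± 27.5 in Math2 arrays, SD, n = 3), the only one of Rpl3l (32.2 ± 9.6 and 56.4 ± 15.3), a paralogue of Rpl3 used in striated muscle, and the dimmer of 2 probe sets of Rpl14 (47.6 ± 7.50 and 74.0 ± 36.1). The medians of the arrays ran from 102 to 120, so these signals lay near or below the middle of each array.

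Ribosomal protein probe sets were crowded at the bright end of the arrays. Of the 187 brightest tested probe sets (1%), 29 (15.5%) belonged to these genes, which make up 0.279% of all tested probe sets. The brightest 5% held 38 of the 52. The signal rank belongs to the probe set as much as to the transcript, so it gives no order of abundance between genes. The brightest member was Rps23, a protein near the decoding centre of the small subunit, which ranked 2 or 3 among all non-control probe sets on each array. Rps29 and Rps3a came next. The dimmest tested were the paralogue Rpl39l1 and Rps4y2, followed by the single-symbol probe set of Rps13 (254 ± 30.4 in control arrays, SD, n = 3).

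Between the groups, most ribosomal protein genes had higher signals on the Math2 arrays, but 0 of 52 probe sets passed the test. Over 46 genes, each represented by its brightest tested probe set, the median log2 difference was 0.49 with quartiles of 0.33 and 0.58, and 42 genes were above 0 and 4 below. For the 18625 tested probe sets together it was -0.031, and 45.7% were above 0. The groups did not overlap, with every Math2 array above every control array, for 24 of 52 member probe sets, against 3.7% of all tested probe sets. For 0 members did every Math2 array lie below every control array, against 4.3% of all. In the numbered pairs, 27 of 52 were higher in 3 of 3, against 13.1%. In limma the adjusted p was 1.00 for each member, and 0.0% of all tested probe sets were called. At an unadjusted p under 0.05, 26 members were higher and 0 lower, against 1.75% and 1.44% of all. With the replicate number as a block in the model, 0 members were called as well, against 0.0161% of all (3 probe sets), and the lowest adjusted p among members was 0.206.

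The Math2 arrays were not alike in this. Relative to the control mean of each gene, the median over the 46 genes was 0.75 on Math2 array 1, 0.59 on Math2 array 2 and 0.15 on Math2 array 3, whereas the control arrays lay at -0.041, 0.032 and 0.048. Math2 array 3 was thus close to the controls, with 35 of 46 genes above their control mean, against 41 and 42 on the other two. Without Math2 array 3 the median log2 difference was 0.67, and without Math2 array 1 it was 0.38. The summed signal of the 46 probe sets took 2.20% to 2.38% of the total signal on the control arrays and 3.6%, 3.36% and 2.47% on Math2 arrays 1, 2 and 3.

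**Figure D1:**
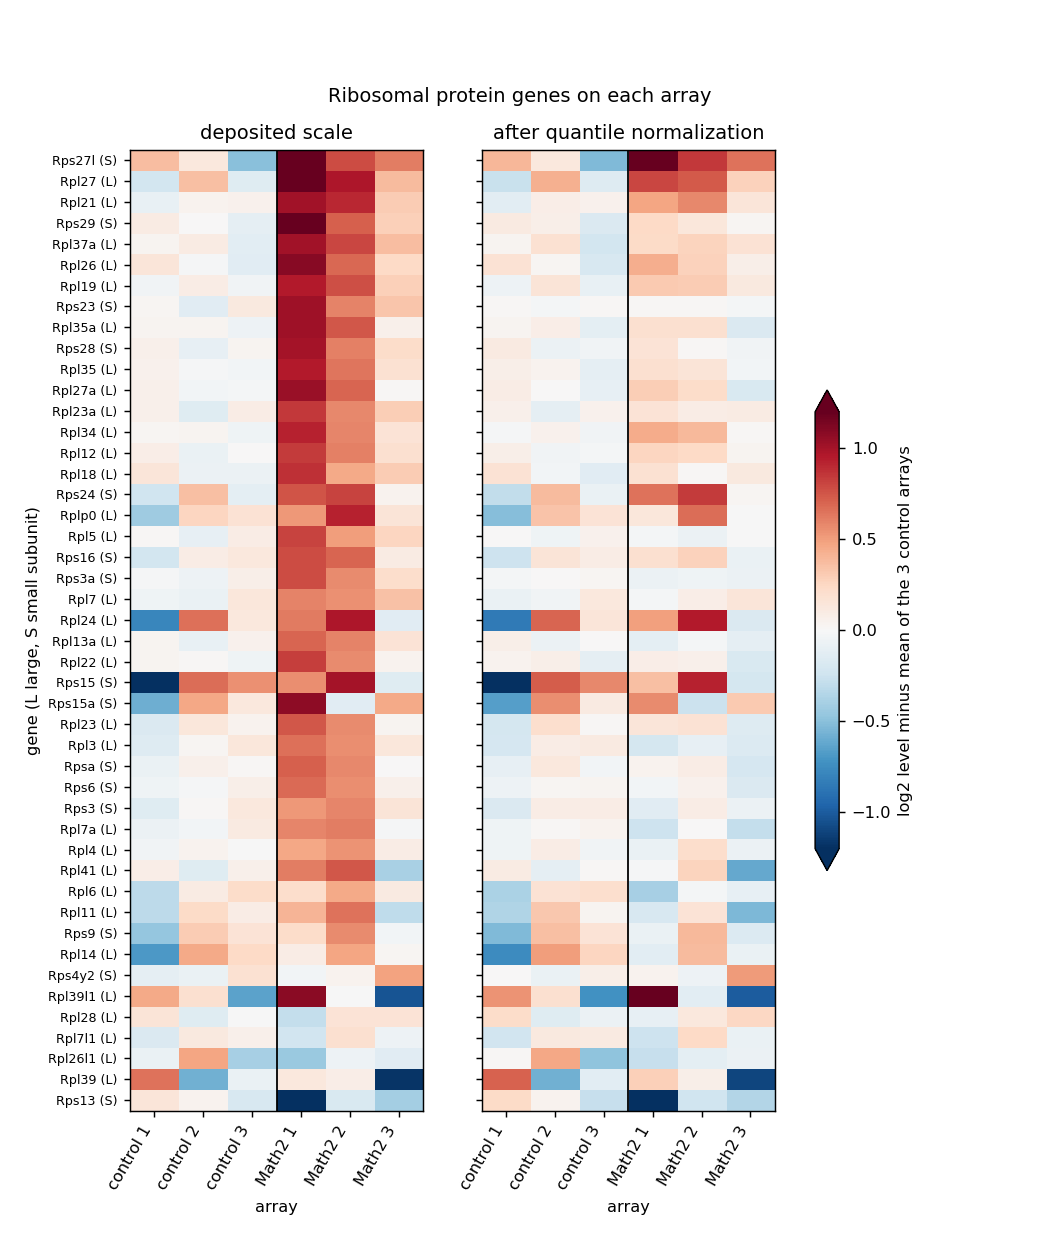
Log2 level of 46 ribosomal protein genes on each of the 6 arrays minus the mean of the 3 control arrays (colour, red above and blue below), on the deposited scale (left) and after quantile normalization (right), ordered by log2 difference, with L for the large and S for the small subunit. On the left most genes are red on Math2 arrays 1 and 2 and pale on Math2 array 3. On the right most are pale on all arrays. There Rps27l, Rpl27, Rps24, Rpl24 and Rpl21 keep the highest average differences, 0.94, 0.61, 0.50, 0.42 and 0.40.

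Some technical measures of the arrays moved the same way, whereas the array medians averaged 111 in both groups. Hybridization spike-ins, transcripts of fixed amount added before hybridization, averaged (geometric mean) 2476, 1893 and 2566 in the controls and 6773, 4044 and 3875 in Math2 1, 2 and 3, so the groups did not overlap (exact two-sided permutation p = 0.1, the smallest that 3 against 3 arrays can give). Poly-A spike-ins, added before labelling, ran from 326 to 2417 and from 1063 to 7602 and overlapped (p = 0.3 in the same exact test). The brightest 1% of tested probe sets were higher as a whole. Leaving out all probe sets with a ribosomal protein symbol, 134 of the other 135 lay above 0, with a median log2 difference of 0.39, and the groups did not overlap for 73 of them. The 29 members in this 1% had a median of 0.53, and for 20 of them the groups did not overlap. The part of these measures in the differences of the ribosomal protein genes was not tested.

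After quantile normalization, which gives all arrays the same distribution of values, the median log2 difference of the 46 genes was 0.063. Of the genes, 29 were above 0, 16 below 0 and Rps23 at 0, against 47.9% of all tested probe sets above 0. The groups then did not overlap for 4 member probe sets with Math2 higher, against 3.06% of all, and for 1 with Math2 lower, against 3.89%. The 4 were Rpl21, Rpl23a, the dimmer probe set of Rpl7 and Rps27l, and the 1 was Rps3a. Centring the arrays on their medians left the median of the 46 genes at 0.48. The size of the shift of these genes thus depended on the scaling. Members outside the brightest 1% moved less with the scaling. The 9 in the next 4% had a median of 0.47 and all 9 were above 0. After quantile normalization their median was 0.27 with 9 of 9 above 0. Most of these 9 read low on control array 1. Rps15, Rpl14, Rps15a, Rps9, Rplp0 and the dimmer Rpsa probe sets lay there over 0.5 log2 units below the mean of controls 2 and 3. Rpl27 and Rpl34 did not. Without control array 1 the log2 difference of Rpl14 was -0.15 and that of Rps9 was 0.016. Rps15 and the Rpsa probe set reading 3811 on control array 1 fell below 0 as well. That all 9 lay above 0 thus depended on that array. Non-members of the next 4% had a median of 0.11, or -0.024 after quantile normalization. The 14 members in the other 95% were mixed, with 8 above and 6 below 0 and a median of 0.014. Across the 52 probe sets, mean level and log2 difference had a Spearman correlation of 0.49, or -0.19 after quantile normalization, given as a description since all points share the 6 arrays.

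**Figure D2:**
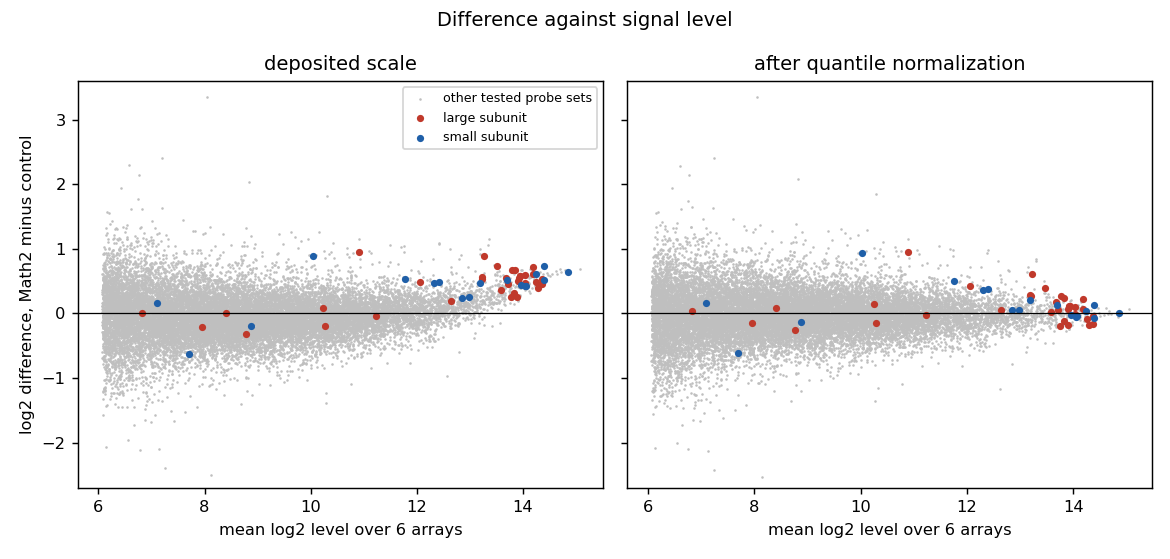
Log2 difference (Math2 minus control) against mean log2 level over 6 arrays for 18625 tested probe sets (grey), 34 of the large subunit (red) and 18 of the small subunit (blue), on the deposited scale (left) and after quantile normalization (right). On the left the brightest probe sets, members and others, bend above 0; on the right the members have a median of 0.063.

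The subunits had nearly the same median, and the gap between them was smaller than the spread between arrays. The large subunit genes had a median log2 difference of 0.49 over 31 genes (28 above 0, 3 below) and the small subunit genes of 0.47 over 15 genes (14 above 0, 1 below), a gap of 0.019. On Math2 arrays 1, 2 and 3 the median shift from the control mean was 0.75, 0.59 and 0.14 for the large subunit and 0.76, 0.59 and 0.16 for the small subunit. The gap between the median levels of large and small subunit genes within an array was 0.081 ± 0.160 log2 units in control and 0.046 ± 0.032 in Math2 arrays (SD, n = 3). Control array 1 alone stood out in that measure, at 0.27, and the others lay between -0.029 and 0.080. With Math2 higher, the groups did not overlap for 18 of 34 probe sets of the large and 6 of 18 of the small subunit. Of all tested probe sets, 3.7% did so. After quantile normalization the counts were 3 of 34 and 1 of 18, against 3.06% of all. In that setting 1 small subunit probe set was lower without overlap, against 3.89% of all. The medians of the large and small subunit genes were then 0.066 and 0.046.

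**Figure D3:**
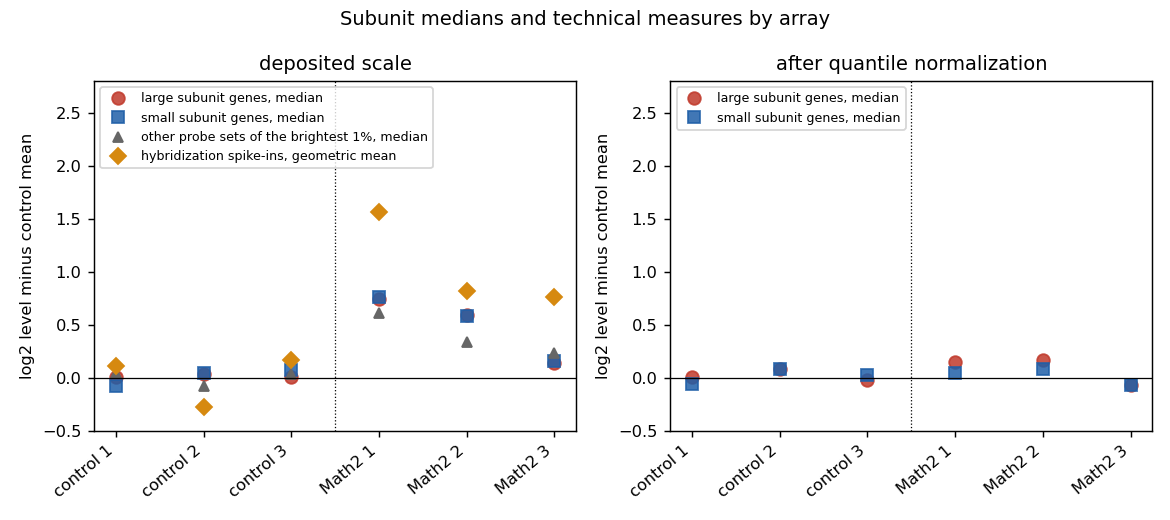
Median shift of large (red circles) and small (blue squares) subunit genes on each array, in log2 units relative to the mean of the 3 control arrays, on the deposited scale (left) with the other probe sets of the brightest 1% (grey triangles) and the hybridization spike-ins (orange diamonds), and after quantile normalization (right). The subunits lie close together on each Math2 array, and the order Math2 1, Math2 2, Math2 3 is shared with the bright probe sets and the spike-ins.

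Among the large subunit genes, Rpl27 had the highest difference. Control arrays 1, 2 and 3 gave signals of 6253, 9349 and 6554, and the Math2 arrays gave 17993, 14224 and 9483, so the lowest Math2 value lay just above the highest control value. The log2 difference was 0.89 (SE 0.255, limma adjusted p = 1.00, or 0.223 with the block) and 0.61 after quantile normalization.

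Rpl21, a protein of the large subunit, measured 8470, 9296 and 9376 in control and 18223, 16944 and 11160 in Math2 arrays, again without overlap. Its log2 difference of 0.74 (SE 0.206) was 0.40 after quantile normalization, and the groups stayed apart in that setting. Rpl37a, which carries a zinc finger, measured 14911, 15545 and 13329 against 29245, 25356 and 18870, a log2 difference of 0.73 (SE 0.186, adjusted p = 0.206 with the block). It had the smallest unadjusted limma p of the members, 0.00272. After quantile normalization its difference was 0.22.

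Rpl26, near the exit of the tunnel for the new peptide, and Rpl19, which reaches across to the small subunit, followed. Rpl26 measured 11343 ± 1121 and 18531 ± 5382 (SD, n = 3), for a log2 difference of 0.67, and Rpl19 measured 11796 ± 634 and 19070 ± 4284, also 0.67. Both were higher in 3 of 3 pairs without overlap, and both had smaller differences of 0.26 and 0.25 after quantile normalization. Without overlap too were Rpl12, Rpl13a, Rpl18, Rpl22, Rpl23a, Rpl34, Rpl35, Rpl35a and Rpl4, with log2 differences from 0.36 for Rpl4 to 0.61 for Rpl35a.

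Rpl5 and Rpl11 join the 5S rRNA in the large subunit and, when free, bind and restrain Mdm2, the inhibitor of p53. Their values were unlike. Rpl5 measured 17785, 16535 and 18748 in control and 31088, 25062 and 21156 in Math2 arrays, with no overlap and a log2 difference of 0.53 (SE 0.173). Rpl11 measured 10278, 14978 and 13562 against 17002, 20135 and 10344, so Math2 array 3 lay among the controls, and its difference was 0.25 (SE 0.252). After quantile normalization both were below 0, at -0.032 and -0.19.

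Rplp0 forms the base of the stalk to which elongation factors attach, and it is often used as a reference gene. It measured 5919, 9541 and 8985 in control and 11418, 15169 and 8890 in Math2 arrays, a log2 difference of 0.53 (SE 0.248) that was 0.27 after quantile normalization. The groups overlapped through Math2 array 3. Rplp1 and Rplp2, its partners in the stalk, and Rpl10 have no probe set with a single symbol here. Rpl22, an RNA-binding protein that cells can largely do without in translation, measured 14324 ± 465 and 20461 ± 5364 (SD, n = 3), for a difference of 0.48 that became -0.015 after quantile normalization.

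At the low end of the large subunit were Rpl39 (517 ± 229 and 418 ± 180, log2 difference -0.32), Rpl26l1 (269 ± 87.2 and 225 ± 31.5, -0.21), Rpl7l1 (2430 ± 255 and 2383 ± 359, -0.033), Rpl28 (331 ± 35.4 and 337 ± 57.7, 0.014) and Rpl39l1 (111 ± 42.2 and 128 ± 94.3, 0.014; all SD, n = 3). Each overlapped between the groups. Rpl26l1 and Rpl39l1 are paralogues of Rpl26 and Rpl39, and Rpl7l1 is a nucleolar relative of Rpl7. These probe sets are the dimmer ones of the group, and the sign depended on the arrays used for each of the 5. Rpl26 and Rpl26l1 thus had differences of 0.67 and -0.21, which is not a test of the gap between them.

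Among the small subunit genes, Rps27l had the highest difference of all 46 genes. It encodes a near copy of Rps27 and is known as a target of p53. Control arrays 1, 2 and 3 gave signals of 1002, 843 and 542, Math2 arrays 1, 2 and 3 gave 1882, 1333 and 1182, and the groups did not overlap. The log2 difference was 0.89 (SE 0.301, limma adjusted p = 1.00, or 0.246 with the block). It was 0.94 after quantile normalization, so this probe set of middling signal did not share the dependence on scaling of the bright members. Rps27 itself has no probe set with a single symbol here.

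Rps29, a zinc-binding protein of the small subunit head, measured 18062, 16889 and 15604 in control and 39062, 27653 and 20513 in Math2 arrays, a log2 difference of 0.74 (SE 0.219, adjusted p = 0.206 with the block). All Math2 values were above all control values, with array 1 far above the others. After quantile normalization the difference was 0.13. Rps23 measured 24106, 21496 and 25607 against 47931, 35841 and 29807, a difference of 0.65 (SE 0.185). It became exactly 0 with quantile normalization, since Rps23 held the ranks 2, 3 and 2 on the control and 2, 2 and 3 on the Math2 arrays. Rps28, which lies near the exit site of the mRNA, measured 15807 ± 923 and 24638 ± 6582 (SD, n = 3), for a difference of 0.61, or 0.046 after quantile normalization.

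Rps3, at the entry of the mRNA channel, measured 14782 ± 1373 and 19903 ± 3042, and Rps3a, a neighbour in name only, 17970 ± 841 and 26141 ± 5132 (SD, n = 3), with log2 differences of 0.42 and 0.52. Neither overlapped on the deposited scale, and after quantile normalization they were at -0.040 and -0.066. Rps6, the substrate of the S6 kinases whose phosphorylation marks mTOR activity and neuronal firing, measured 13950, 14330 and 15237 in control and 23180, 21302 and 15111 in Math2 arrays. Math2 array 3 lay within the control range, and the difference was 0.43 (SE 0.186), or -0.051 after quantile normalization.

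The lowest small subunit gene was Rps13, with 281, 261 and 221 in control and 97.4, 222 and 189 in Math2 arrays, a log2 difference of -0.63 (SE 0.361). Its Math2 values were lower in 3 of 3 pairs, although Math2 array 2 just overlapped control array 3, and array 1 was the lowest. It was the only member lower in all pairs, and its probe set was among the 3 dimmest tested. The remaining low members were Rps4y2 (123 ± 14.8 and 139 ± 29.5, log2 difference 0.16) and Rps9 (7633 ± 2000 and 8976 ± 1897, 0.25; SD, n = 3).

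Of the 6 genes with more than one probe set, 5 had at least 2 tested, and these did not always have like differences. For Rps24, a gene with splice variants near its 3′ end, the brighter probe set measured 2952 ± 684 and 4334 ± 1169 (SD, n = 3), for a log2 difference of 0.54, whereas the dimmer measured 499 ± 32.9 and 436 ± 74.5, a difference of -0.20. For Rpl3, which lies close to the peptidyl transferase centre, the brighter had 0.45 without overlap and the dimmer, which may bind related sequences by its design suffix, had -0.19 (17982 ± 1835 and 24774 ± 4463 against 1323 ± 181 and 1175 ± 309). The 2 probe sets of Rpl7l1 had -0.033 and 0.085. So 3 of 5 genes had probe sets of opposite sign, none of which passed the test.

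Rpl7 was the reverse case: its dimmer probe set had the larger difference. It measured 1875, 1360 and 1027 in control and 4337, 1979 and 2238 in Math2 arrays, a log2 difference of 0.95 (SE 0.334, adjusted p = 0.206 with the block) that was 0.96 after quantile normalization. The brighter probe set of Rpl7, with 12992 ± 1105 and 18373 ± 1615 (SD, n = 3), had 0.50, or 0.066 after quantile normalization. Both were without overlap on the deposited scale. Rpsa, which also serves as a laminin receptor, had 3 probe sets with differences of 0.43, 0.23 and 0.49, and all 3 overlapped between the groups.

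**Figure D4:**
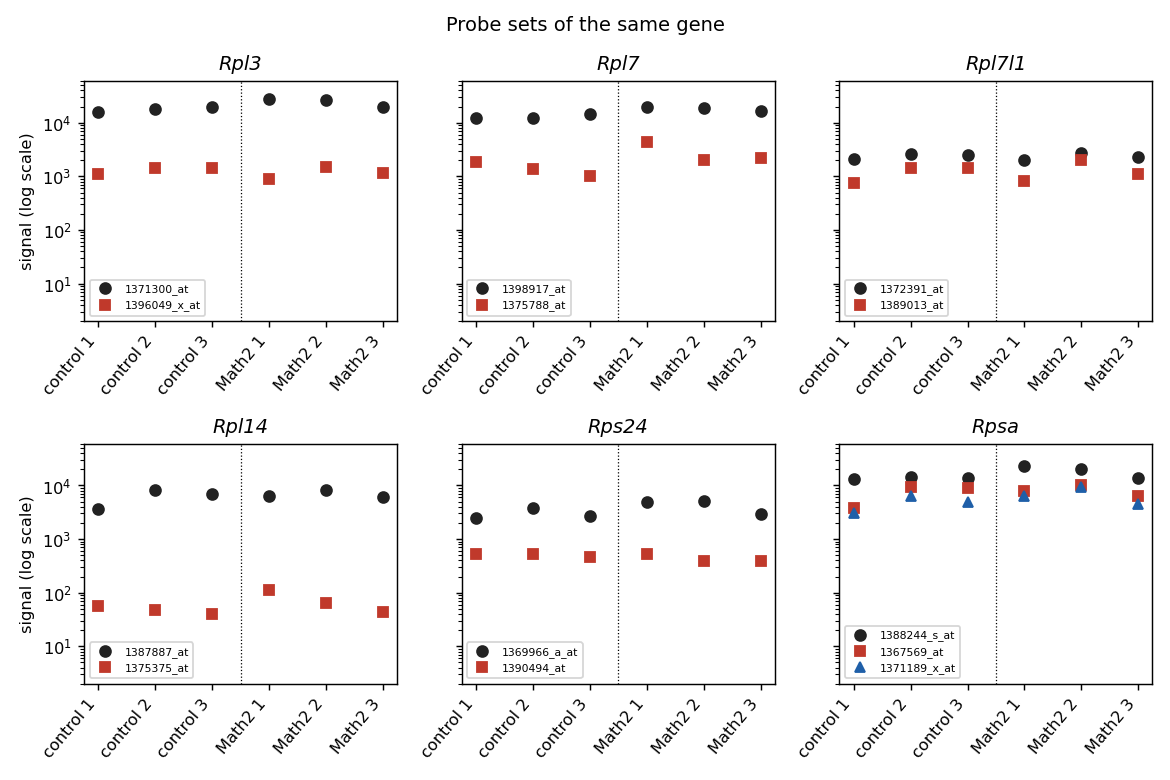
MAS5 signal (log scale) on each of the 6 arrays for the 6 genes with more than 1 probe set, 1 symbol per probe set. The brighter probe sets of Rpl3 and Rps24 average higher on the Math2 arrays and the dimmer ones do not; for Rpl7 both do; for Rpsa the 2 dimmer probe sets are low on control array 1.

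Control array 1 had low values for a subset of members. Rps15 read 1860 there against 6909 and 6318 on control arrays 2 and 3, Rpl24 read 2104 against 5712 and 3940, and Rpsa, by its second probe set, read 3811 against 9385 and 8909. Of 46 genes, 6 (13.0%) were lower by more than 0.5 log2 units on control array 1 than on the mean of the other 2 control arrays. By probe set it was 9 of 52 (17.3%), against 20.2% of all tested probe sets, so this was not more frequent in the group. All 9 lay outside the brightest 1%. The genes named were chosen after their values were seen. The Gapdh 3' to 5' signal ratio, which grows as labelled transcripts become shorter, was 13.8 on control array 1, 3.74 and 5.04 for the other controls, and 8.48, 6.0 and 8.14 for Math2. Its part in these values was not tested. Without control array 1 the median log2 difference of the 46 genes was 0.41.

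The tested probe sets followed a shared course over the 6 arrays. Their Pearson correlation with the median course of the group (each gene centred on its mean) had a median of 0.93 over 52 probe sets. It was above 0.9 for 28 of them. For the 18625 tested probe sets together the median was -0.034, and 258 were above 0.9. The group median is made from the same probe sets, and all points share the 6 arrays and their scaling. Among genes outside the group, the 10 most alike in course included Rack1 (r = 0.989), a ribosomal protein of the small subunit with a different kind of name, the intermediate filament gene Vim (0.989), the tubulin gene Tubb2a (0.989), the ATP synthase gene Atp5mc3 (0.989) and Spcs1 of the signal peptidase (0.981), all in the brightest 5%. The others were Wdr31 (0.992), Lyrm9 (0.991), Rsu1 (0.987), Sdhaf3 (0.985) and Stk35 (0.985), of lower signal.

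The medians were near each other across promoter features. The 21 tested genes with a pyrimidine tract of 8 or more bases had a median log2 difference of 0.53, the 10 with 5 to 7 bases 0.43 and the 11 without such a tract 0.45. The 24 with CANNTG in the promoter entry had a median of 0.46 and the 18 without it 0.51. The 36 probe sets that name a ribosomal protein beside other symbols had a median of 0.46, with 34 above 0 and 2 below, and 0.069 after quantile normalization.

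Other parts of the translation machinery were described for comparison, and 0 genes of these lists passed in limma with or without the block. Other mRNAs with a terminal oligopyrimidine tract had a median log2 difference of 0.41 (11 of 13 above 0), or 0.10 after quantile normalization. Among them, Hnrnpa1, a splicing factor, measured 4953, 3125 and 3491 in control and 13008, 7603 and 5152 in Math2 arrays, a log2 difference of 1.08 that was 0.94 after quantile normalization. Eef1b2, a subunit of the factor that recharges the elongation factor, measured 12698 ± 1591 and 20689 ± 5469 (SD, n = 3), for a difference of 0.68, or 0.19 after quantile normalization. Rack1 measured 11818 ± 436 and 16758 ± 2620, a difference of 0.49, or 0.10. The groups overlapped for none of these 3, which were named for the smallest unadjusted limma p in this list. In the whole list the groups did not overlap for 5 of 13, with Math2 higher, against 3.7% of all tested probe sets. Of these 5, Eef1b2, Rack1, Vim and Eef1a1 lay in the brightest 1%. There the groups did not overlap for 73 of 135 probe sets without a ribosomal protein symbol. Some genes of the list also stand in the lists of elongation and initiation factors.

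Elongation and release factors had a median of 0.037 (8 of 12 above 0) and initiation factors of 0.054 (23 of 37), and these turned to -0.086 and -0.021 after quantile normalization. The main elongation factor gene Eef1a1 had 0.32, or -0.17 after quantile normalization, and the initiation factor gene Eif3f had 0.48, or 0.20. Ribosome biogenesis factors had a median of 0.020 (22 of 39 above 0), with Nop58, a core protein of small nucleolar particles, at 0.57 and the rRNA methyltransferase gene Nop2 at -0.59. Genes of mTOR and S6 kinase signalling had a median of -0.069 (6 of 24 above 0), with the mTOR activator gene Rheb at 0.34 and Rps6ka3 at -0.49.

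Mitochondrial ribosomal protein genes, whose products form the separate ribosome of mitochondria, had a median log2 difference of 0.18, with 57 of 73 above 0. That median was 0.16 after quantile normalization and so hardly moved with the scaling, unlike that of the cytosolic genes. The groups did not overlap for 4 of the 73, with Math2 higher, against 3.7% of all tested probe sets, a similar share. Mrpl41 measured 4624 ± 408 and 6568 ± 1541 (SD, n = 3), for a difference of 0.48.

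The cells read as mixed cortical cultures on both sides. Pan-neuronal markers were tested for 11 of 13 genes, with a median of 0.073 and a summed signal of 16319 to 29618 in control and 16927 to 37214 in Math2 arrays. Astrocyte markers had a median of 0.028 (8 of 9 genes on the array tested; -0.15 after quantile normalization). Fibroblast and meningeal markers had -0.35 with 0 of 8 tested genes above 0, and their summed signals of 7656 to 9620 and 6538 to 8231 overlapped. For 3 of these 8, Aldh1a2, Fbn1 and Col1a1, every Math2 array lay below every control array, against 4.3% of all tested probe sets. Only 1 of 10 microglial markers passed the filter, Fcer1g, with a log2 difference of -0.31 and overlapping groups. The summed signal of the whole microglial list was 375 to 476 in control and 268 to 350 in Math2 arrays, without overlap. That sum comes mostly from probe sets too dim to pass the filter, and no like share over all probe sets was made. Excitatory and inhibitory neuron markers had medians of 0.15 and -0.13, oligodendrocyte lineage markers of -0.023, endothelial and mural markers of 0.34 over 4 genes and neural progenitor markers of -0.037. In such bulk samples, a change in the mix of cells and a change in RNA per cell cannot be told apart, and the part of these markers in the values of the ribosomal protein genes was not tested.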

How the data were processed

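Arrays of 3 control and 3 Math2 samples were used. The deposited table holds 1 MAS5 signal intensity per probe set on a linear scale, per the submitters' processing notes, which give no version or settings. Trimming 2% at each end left a mean of 500.2 on each array, so no further scaling was applied for the main result. Of 31099 probe sets, 57 control probe sets were left out of tests. By the platform annotation, 20826 probe sets carry 1 symbol, 436 carry several and 9780 carry none. Of the 55 member probe sets, 53 matched a RefSeq gene of GRCr8 by gene number, with 0 changed symbols.

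The pseudocount, 7.42, is the 10th percentile of positive values. Tests covered probe sets whose mean log2 level reached the 40th percentile, 6.07, with limma 3.58.1 in R 4.3.3 (lmFit, eBayes with trend, two-sided, Benjamini-Hochberg over 18625 probe sets). The fit was tested on simulated data. The main fit had no block for the replicate number. Samples of like number deviated from their group means with correlations of 0.326, 0.476 and 0.372 across probe sets. Numbers were therefore treated as pairing them in the pair counts and in the fits with the block. This rests on the correlations alone, as no label states what a number marks. Alternatives were quantile normalization, median centring, other pseudocounts and filters, the replicate block and left-out arrays. The number of arrays limits the precision.

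Members, lists and the naming rule were chosen with earlier results of these data known. Named are the 5 highest and 5 lowest genes per subunit, genes with known special roles, paralogues, genes with differing probe sets, the brightest and dimmest, untested members, up to 3 genes per other list by p and the 10 most alike in course.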

Additional observations from a re-analysis of the deposited data

How the results depend on the processing

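The shift of the 46 ribosomal protein genes depended on the scaling. Their median log2 difference was 0.063 with quantile normalization, alone or with the replicate block, and 0.48 to 0.49 with median centring, other pseudocounts or filters. It ran from 0.30 to 0.69 with an array or numbered pair left out. It was 0.52 within the brightest 5% and 0.49 with the probe sets of several symbols added, both chosen after seeing the data. The gap between the subunits ran from -0.071 to 0.069 with an array or pair left out. Over all tested probe sets 3 were called with the replicate block, 5 with block and quantile normalization and 0 with any single array left out; with the block and a numbered pair left out, 5, 111 and 18 were called without pairs 1, 2 and 3. Of the members 0, 3 and 1 were called in those settings: Rpl27, Rps15a and the dimmer probe set of Rpl7 without pair 2, and Rpl21 without pair 3. The block alone changed no call of a member. The cause of these changes was not tested.

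With quantile normalization, with or without the block, the sign turned for 12 of the 46 genes: Rpl11 (-0.19), Rpl6 (-0.18), Rpl7a (-0.18), Rpl3 (-0.16), Rpl41 (-0.12), Rpl13a (-0.081), Rps3a (-0.066), Rps6 (-0.051), Rps3 (-0.040), Rpl5 (-0.032), Rpsa (-0.026) and Rpl22 (-0.015). With an array left out, log2 differences turned within -0.15 to 0.42 for Rpl14, -0.41 to 0.026 for Rpl26l1, -0.061 to 0.16 for Rpl28, -0.61 to 0.10 for Rpl39, -0.52 to 0.54 for Rpl39l1 and -0.15 to 0.065 for Rpl7l1. With the block and a pair left out, they turned to -0.098 for Rpl14, -0.13 and -0.064 for Rpl28 and 0.064 for Rpl39. They turned to -0.29 for Rpl39l1 and 0.014 for Rpl7l1. These lists for left-out arrays and pairs cover only 29 genes followed singly. Among the rest, Rps15 fell below 0 without control array 1, and Rps15 and Rps15a did so without pair 1. In pairs 2 and 3, Rps15 had log2 differences of 0.33 and -0.69, and Rps15a had -0.60 and 0.33.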
